A study of Mus musculus with 24 samples.

Results

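The cytochrome P450 genes encode haem enzymes that insert an atom of oxygen into lipids, hormones, vitamins and foreign chemicals. They were taken from the gene table by name, as every GENCODE M21 symbol of Cyp followed by a number, a letter and a number, with pseudogenes and Cyp51 left out. This gave 98 of the 39017 gene IDs, all annotated as protein coding. Of these, 35 had 10 or more counts in 6 or more of the 24 libraries and were tested among the 16558 genes that passed this filter, 33 had some counts and did not pass, and 30 had no count in any library. Among the 35, 32 would also have passed on the libraries outside their highest group, and Cyp2j8, Cyp2u1 and Cyp8b1 would not, so a difference between groups was in part built into their being tested.

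P450 enzymes draw electrons from a reductase and act as the gatekeepers of many small signalling molecules. Some are narrow in their substrates, such as the Cyp26 enzymes that clear retinoic acid, the Cyp27 and Cyp24 enzymes that activate and destroy vitamin D, and Cyp11a1, which opens steroid synthesis. Others, mainly of families 1 to 4, oxidise drugs, solvents, smoke constituents and fatty acids. In skin they are known from the epidermis, the hair follicle and its sebaceous gland, where they take part in barrier lipid synthesis, retinoid control and the handling of chemicals from outside.

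The 24 libraries were made from about 50 mg of dorsal skin of female C3H/HeJ mice of about 30 weeks, 6 libraries for each of 4 groups. C3H/HeJ is a strain in which skin grafted from an affected mouse brings on alopecia areata (AA), an autoimmune loss of hair. The healthy group was age-matched and untreated, and the AA group, with full hair loss, was also described as untreated and sampled at week 12 with it, although its sample names hold Vec12w. For the systemic JAK1i group, AA mice received Cmpd A (AZ13748709), an oral selective inhibitor of the kinase JAK1, in their daily food at about 100 mg/kg, and live biopsies were taken at week 4. The 8w off Tx group was sampled at week 12, 8 weeks after dosing had ended. By the methods these were the same 6 mice as in the systemic JAK1i group, so the groups are not independent animals. The library names hold a replicate letter from A to F in each group, and no source used here says whether a letter marks a mouse. Systemic JAK1i skin also differs from each other group in the week and in being sampled alive, and these cannot be told apart from dosing. By the study's hair scores, the treated mice followed to week 12 had some hair before dosing and again at week 12. The AA mice had none at the start and almost none at week 12. This difference between the treated and AA mice cannot be told apart from dosing either. In bulk skin, fewer cells of a type and less RNA per cell cannot be told apart either.

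Library totals ran from 3444193 to 11233020 counts (median 5517357), and no pair of libraries of a group agreed within sampling noise. Every library held basal keratinocyte markers of skin, with a summed level of Krt5, Krt14 and Col17a1 from 4045 to 8941 CPM (counts scaled to a common library total, with TMM factors). Hepatocyte markers, checked because many P450 enzymes are known from liver, summed to at most 17.1 CPM in any library. Some libraries stood apart. The 5 hair matrix and cortex markers in the table summed to 34.7 and 27.6 CPM in 8w off Tx libraries A and E, near the healthy range of 8.08 to 39.7, against 320 to 654 CPM in the other 4 libraries of that group. Healthy libraries A and E held few skeletal muscle reads (218 and 196 CPM, against 2702 to 15446 CPM in the other 4), and healthy B had the lowest sebocyte sum of its group (183 CPM, against 297 to 580 CPM). Healthy B was also lowest in adipocyte (358 CPM), fibroblast (1916 CPM) and endothelial (100.3 CPM) sums, and highest in basal keratinocyte markers (8941 CPM). AA C had the highest sebocyte (419 CPM, against 90.9 to 272 CPM) and adipocyte sums (645 CPM, against 101 to 242 CPM) of its group. It was also highest in fibroblast and endothelial markers and lowest in T cell markers.

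On the length-corrected TPM scale, the most abundant P450 genes in healthy skin were Cyp2b19, an epoxygenase of arachidonic acid in keratinocytes, at 23.8 ± 6.005 TPM (SD, n = 6), Cyp4b1, a fatty acid hydroxylase of epithelia, at 23.1 ± 7.97 TPM, and Cyp2e1, which oxidises ethanol, acetone and other small solvents, at 21.6 ± 8.07 TPM. Their ranges over libraries overlapped, so their order is not settled. Cyp26b1, which hydroxylates retinoic acid for disposal, followed at 13.1 ± 3.29 TPM, and Cyp4f39, the mouse counterpart of the human enzyme that makes the omega-hydroxylated ceramides of the skin barrier, at 12.6 ± 2.45 TPM. The lowest of the 35 was Cyp2t4 at 0.387 ± 0.185 TPM. The spread between healthy mice was itself uneven. Cyp39a1 kept between 2.21 and 3.38 TPM, whereas Cyp2g1, a P450 known from the olfactory mucosa, ran from 0.0606 to 17.7 TPM.

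**Figure D1:**
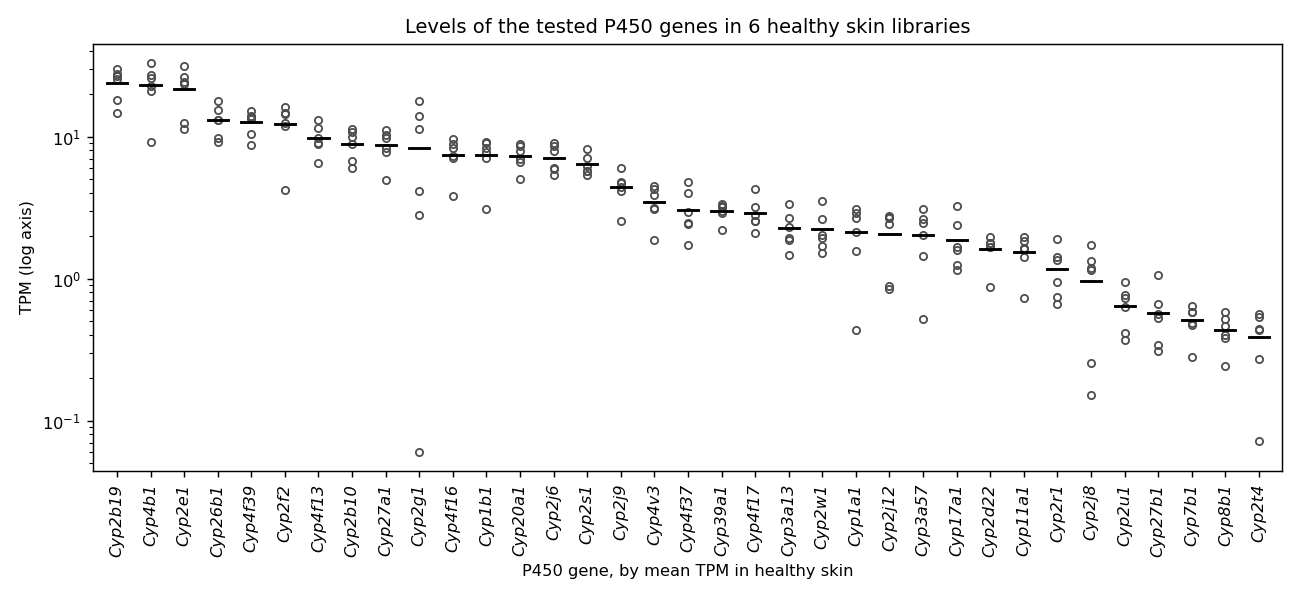
TPM (log axis) of the 35 tested P450 genes in the 6 healthy skin libraries, ordered by mean. Circles are libraries and bars are means. Cyp2b19, Cyp4b1 and Cyp2e1 lead with means of 21.6 to 23.8 TPM, and Cyp2g1 has the widest spread.

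The liver-type subfamilies had few counts in skin. None of 15 Cyp2c genes passed the filter and 13 of them had no count at all. Of 8 Cyp2d genes, 6 had no count and 1 was tested. None of 8 Cyp4a genes passed, 4 of them having no count, and of 9 Cyp3a genes 2 were tested. Tested were 15 of 48 genes of family 2, 7 of 20 of family 4, and 13 of the 30 in all other families. The deposited TPM table differed from the counts for some untested genes. Of the 63, 45 had a TPM above 0 in some library, 12 of these with no count, and 7 had a higher mean TPM than Cyp8b1, the lowest tested gene by its mean over all libraries. Cyp4x1, a fatty acid hydroxylase of family 4 known from brain, had 1 count in all, but a lowest, median and highest level of 4.13, 5.35 and 7.08 TPM in healthy, 2.67, 4.59 and 7.23 TPM in AA, 5.57, 6.95 and 8.27 TPM in systemic JAK1i and 2.24, 2.86 and 5.16 TPM in 8w off Tx skin. Cyp2j5 had no count and medians of 0.450 to 0.946 TPM in the 4 groups, Cyp4a31 had 4 counts and medians of 0.395 to 1.24 TPM, and Cyp2j13 had 73 counts and medians of 0.974 to 2.52 TPM. How the tables assign reads to these genes is not given, and low counts do not show that they are silent. These 4 were named after their values were seen.

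The tested Cyp2b, Cyp2f, Cyp2g, Cyp2s and Cyp2t genes lie on chromosome 7, the 4 tested Cyp2j genes and Cyp4b1 on chromosome 4, and the 5 tested Cyp4f genes on chromosome 17.

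Promoters are shown for P450 genes that the results turn on, to set the measured differences beside the letters in front of each start. They are the 2 members of family 1 that were tested and the 3 genes with an AA fall of more than 2 on the log2 scale whose promoter held a motif searched. Cyp11a1, Cyp2f2, Cyp2g1, Cyp2j8 and Cyp4f37 also fell by more than 2 and had no match or no promoter entry. The 250 bases before the RefSeq start (GRCm38.p6) are printed 5′ to 3′ in the direction of the gene, with matches on either strand in capitals. The motifs were GCGTG, the core to which the aryl hydrocarbon receptor binds (CACGC on the other strand), TTCNNNGAA, the form bound by STAT proteins downstream of JAK kinases, and TATAAA, the TATA box. The windows lie at chr9:57697363-57697612 on the + strand (Cyp1a1), chr17:79715062-79715311 on the - strand (Cyp1b1), chr7:140763569-140763818 on the + strand (Cyp2e1), chr4:115647722-115647971 on the - strand (Cyp4b1) and chr4:96141153-96141402 on the - strand (Cyp2j12).
Cyp1a1: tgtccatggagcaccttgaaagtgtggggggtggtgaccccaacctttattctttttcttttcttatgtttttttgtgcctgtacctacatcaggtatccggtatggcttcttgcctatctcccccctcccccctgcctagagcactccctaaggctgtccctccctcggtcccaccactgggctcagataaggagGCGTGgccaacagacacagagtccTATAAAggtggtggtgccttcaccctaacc
Cyp1b1: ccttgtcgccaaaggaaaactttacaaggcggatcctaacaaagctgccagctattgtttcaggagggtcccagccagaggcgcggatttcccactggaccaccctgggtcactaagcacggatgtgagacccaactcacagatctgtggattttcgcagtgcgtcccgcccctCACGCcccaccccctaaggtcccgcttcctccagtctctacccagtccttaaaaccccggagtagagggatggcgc
Cyp2e1: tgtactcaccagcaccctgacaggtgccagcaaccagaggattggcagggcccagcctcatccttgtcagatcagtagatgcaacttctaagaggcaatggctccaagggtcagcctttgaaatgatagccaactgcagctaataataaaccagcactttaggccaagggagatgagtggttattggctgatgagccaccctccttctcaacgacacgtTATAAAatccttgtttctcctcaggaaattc
Cyp4b1: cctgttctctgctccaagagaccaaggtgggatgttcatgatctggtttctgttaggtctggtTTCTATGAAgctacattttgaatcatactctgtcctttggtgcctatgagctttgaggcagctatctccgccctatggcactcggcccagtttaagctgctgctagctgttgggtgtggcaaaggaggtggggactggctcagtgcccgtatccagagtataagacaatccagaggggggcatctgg
Cyp2j12: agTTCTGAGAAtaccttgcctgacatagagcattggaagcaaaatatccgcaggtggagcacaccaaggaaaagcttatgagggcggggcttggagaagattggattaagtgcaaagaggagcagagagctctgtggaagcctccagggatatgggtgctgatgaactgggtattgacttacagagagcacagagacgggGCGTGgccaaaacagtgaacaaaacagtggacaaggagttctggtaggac
Cyp1a1 held GCGTG 54 bases and TATAAA 30 bases before its start, and Cyp1b1 held GCGTG on the other strand 76 bases before its start. Cyp2e1 held TATAAA 31 bases before its start, Cyp4b1 held TTCNNNGAA at 187 bases, and Cyp2j12 held GCGTG at 50 and TTCNNNGAA at 248 bases. Of the 35 tested P450 genes 28 had a promoter entry. GCGTG was found in 10 of the 28 and in 28.16% of all 32851 promoters, TTCNNNGAA in 3 and 7.02%, and TATAAA in 4 and 12.37%. A match is only a run of letters, and the shares are given as a description.

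Most P450 genes measured in skin were lower in AA than in healthy skin. Of the 35 tested, 22 fell, 4 rose and 9 did not pass the test (edgeR's quasi-likelihood test, Benjamini-Hochberg adjusted p below 0.05), whereas over all genes tested 19.2% fell and 20.6% rose. The median log2 fold change of the 35 was -0.90, against 0.00 over all 16558 genes. Fold changes are given on the log2 scale with their standard errors (SE). The largest fall was that of Cyp2e1, 9.49-fold, and the 4 that rose were Cyp2s1, Cyp7b1, Cyp27b1 and Cyp17a1. Past the study's own thresholds of FDR below 0.001 and more than 4-fold, which 0.972% of all genes passed downward and 2.43% upward, were 6 P450 genes, all lower, namely Cyp2e1, Cyp4b1, Cyp4f37, Cyp11a1, Cyp2f2 and Cyp2j12. The values of AA and healthy libraries did not overlap for 13 of the 35, and for 14.1% of all genes tested. On the TPM scale as deposited, where the median of all genes itself lay at -0.29 in this comparison, none of the 4 rises passed, and with each library's median set to 0 those of Cyp7b1 and Cyp17a1 did.

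In systemic JAK1i against AA skin, 23 of the 35 were higher, 5 were lower and 7 did not pass, where 22.7% and 24.4% of all genes were higher and lower. The median of the 35 was 1.10 on the log2 scale, against 0.00 over all genes. Cyp2g1 differed most (4.70 ± 0.77 SE), followed by Cyp2e1 (4.08 ± 0.40). The 5 lower genes were Cyp2s1, Cyp7b1, Cyp27b1, Cyp17a1 and Cyp4f16. Past the study's thresholds (1.06% of all genes higher, 2.69% lower) were 7 P450 genes, all higher, namely Cyp1a1, Cyp2e1, Cyp2f2, Cyp2g1, Cyp2j8, Cyp2j12 and Cyp3a57. This comparison and the one before it share the AA libraries, so an unusual AA library moves both in opposite directions. On the uncentred TPM scale, where the median of all genes lay at 0.65, none of the 5 lower genes passed and Cyp4f16 changed sign.

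Between systemic JAK1i and healthy skin edgeR's test called 0 of the 35 in either direction, and DESeq2 also called 0, while limma-voom called 1, Cyp2g1. Over all genes 0.495% were called higher and 0.538% lower. At an unadjusted p below 0.05 there were 7 P450 genes, 5 higher and 2 lower, beside 7.83% and 9.0% of all genes. The widest differences were those of Cyp2g1 (2.16 ± 0.65, adjusted p = 0.1) and Cyp1a1 (1.02 ± 0.43, adjusted p = 0.22), both with systemic JAK1i libraries entirely above the healthy ones. A miss of the threshold does not show that the groups were alike, and with 6 libraries a group the standard error of these log2 fold changes ran up to 0.65.

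In 8w off Tx against healthy skin, 15 of the 35 were lower and 4 higher, beside 15.6% and 16.7% of all genes. The 4 higher genes were Cyp2s1, Cyp7b1, Cyp27b1 and Cyp4f17. Calls that leaving out 1 library could end were Cyp2s1 higher, given with that gene, Cyp4f17 higher (0.35 ± 0.13, adjusted p = 0.043), lost without healthy B, C, D or F or 8w off Tx A, B or C (adjusted p from 0.057 to 0.11), Cyp20a1 lower (-0.50 ± 0.19, adjusted p = 0.043), lost without healthy C, D or F or 8w off Tx A, D, E or F (adjusted p from 0.054 to 0.10), and Cyp2j8 lower (-1.70 ± 0.62, adjusted p = 0.031), lost without healthy A, C or D or 8w off Tx A, C or E (adjusted p from 0.054 to 0.080). On the uncentred TPM scale the median of all genes lay at -0.80, and there Cyp2s1 and Cyp4f17 changed sign, Cyp7b1 and Cyp27b1 did not pass, and Cyp3a13 and Cyp4f16, not called on counts and above healthy there, passed as lower. 

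In 8w off Tx against AA skin 2 P450 genes passed edgeR's test, both higher, Cyp2e1 and Cyp39a1, and 0 were lower (0.719% and 0.628% of all genes). DESeq2 called 3 higher and 0 lower, and limma-voom 0 in either direction. At an unadjusted p below 0.05 there were 7, all higher, where 9.77% of all genes were higher and 8.58% lower. Against systemic JAK1i skin 20 were lower and 4 higher (16.4% and 19% of all genes). Among the 20, calls were lost for Cyp2b19 without systemic JAK1i B, C, E or F or 8w off Tx B, C or F (adjusted p from 0.058 to 0.097), for Cyp39a1 without systemic JAK1i B or E or 8w off Tx B or C (adjusted p from 0.051 to 0.065), and for Cyp4f13 without systemic JAK1i E or 8w off Tx C or F (adjusted p from 0.061 to 0.070). On the uncentred TPM scale, where the median of all genes lay at -1.16, the 4 higher genes did not pass as higher and Cyp2s1 and Cyp4f17 passed as lower. That test treats the libraries as separate animals, which they were not.

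**Figure D2:**
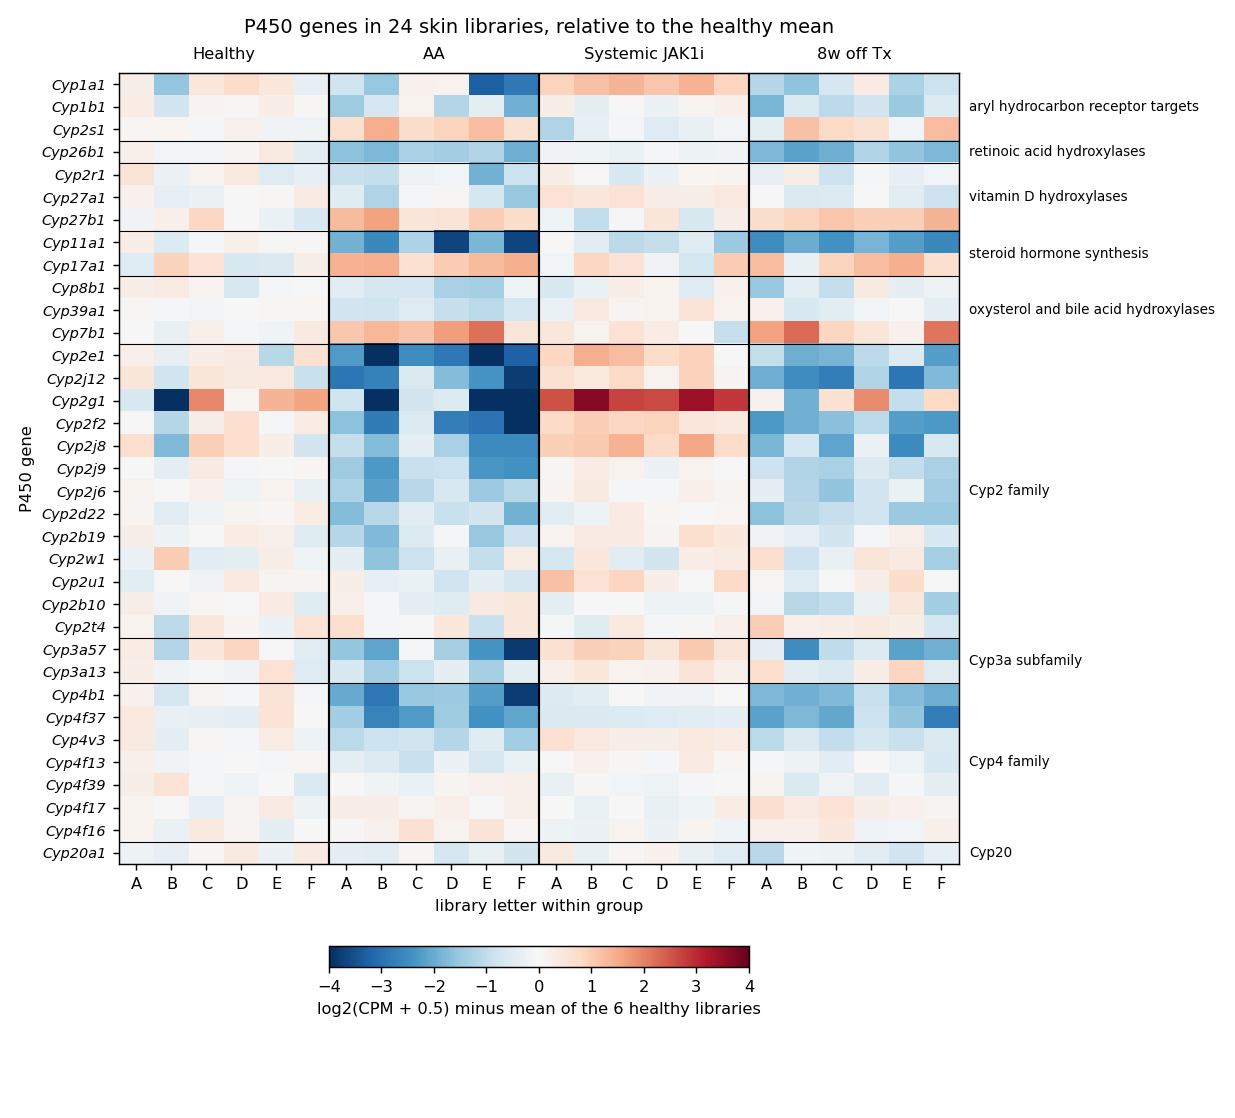
Each column is a library and each row a tested P450 gene, grouped by role. Colour is log2(CPM + 0.5) minus the mean of the 6 healthy libraries, saturated at -4 and 4. Blue fills most rows of the AA and 8w off Tx blocks. Rows that are not mainly blue there include Cyp2s1, Cyp27b1, Cyp17a1, Cyp7b1, Cyp4f16 and Cyp4f17.

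**Figure D3:**
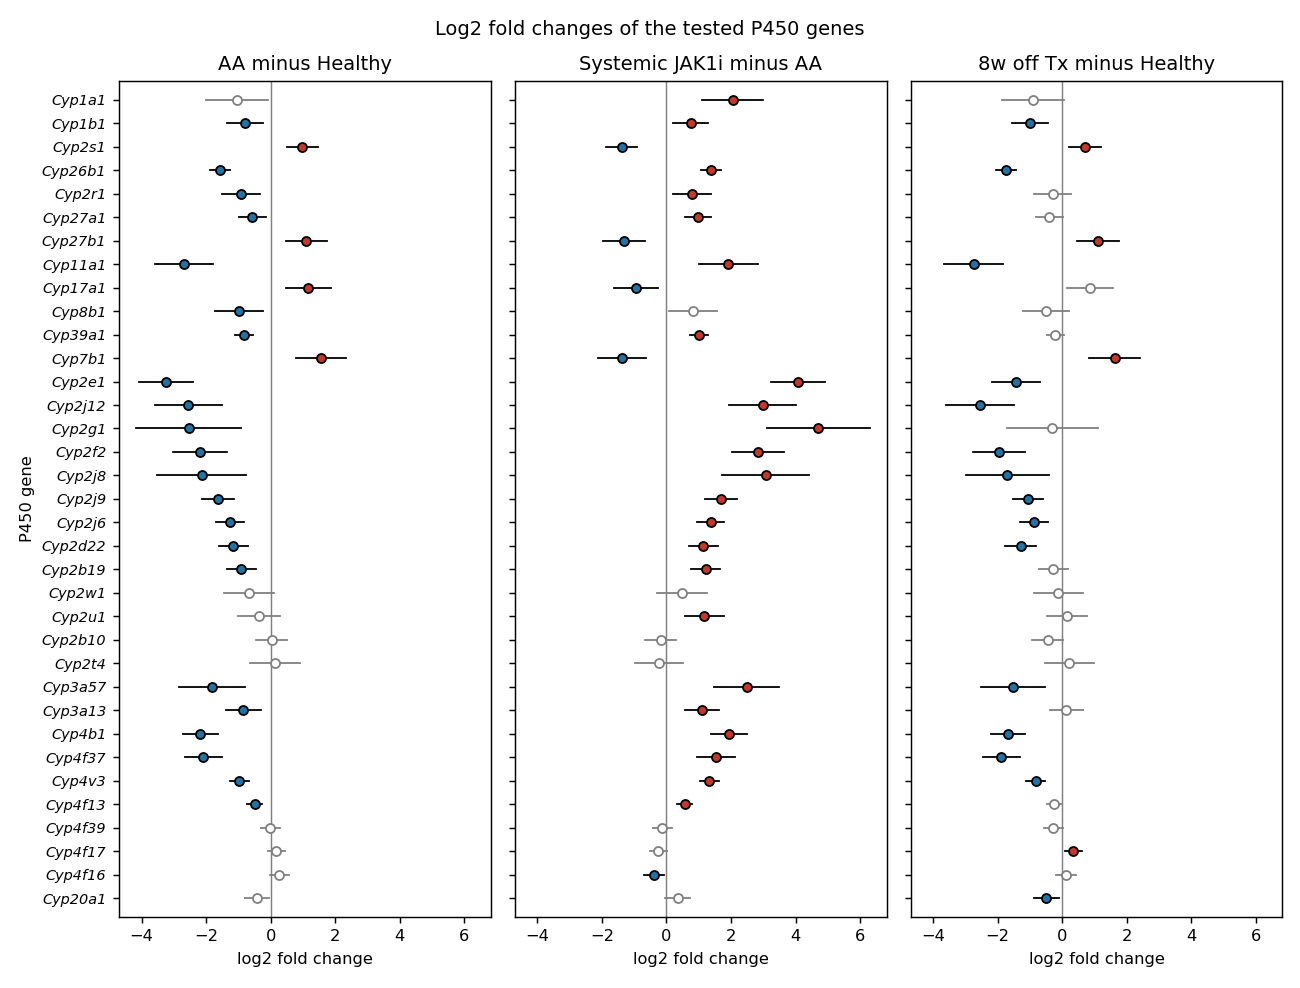
Log2 fold changes (points) with 95% confidence intervals (lines) of the 35 tested P450 genes in 3 comparisons. Filled red points are higher and filled blue points lower at an adjusted p below 0.05, and open grey points did not pass. AA minus healthy holds 22 blue and 4 red points, systemic JAK1i minus AA 5 blue and 23 red, and 8w off Tx minus healthy 15 blue and 4 red.

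Some cell-type marker lists moved with the P450 falls, and others moved little or otherwise. The 8 sebocyte markers summed to 183 to 579.7 CPM in healthy and 90.9 to 419 CPM in AA skin, 636 to 882 CPM in systemic JAK1i and 98.6 to 351 CPM in 8w off Tx skin, and of the 7 tested 3 fell and 1 rose in AA. The 6 adipocyte markers all fell in AA, from 358 to 1688 to 101 to 645 CPM, and summed to 711 to 1258 CPM in systemic JAK1i and 245 to 338 CPM in 8w off Tx skin. All 3 endothelial markers fell as well (100.3 to 212 CPM in healthy, 29.9 to 88.1 CPM in AA). The 5 hair matrix and cortex markers rose, from 8.08 to 39.7 to 221 to 848 CPM, as did 4 of 5 inner root sheath markers. The 4 T cell markers summed to 8.61 to 17.1 CPM in healthy and 15.4 to 76.9 CPM in AA skin, and 1 of them rose. Of 4 fibroblast markers 1 fell in AA, of 4 macrophage markers 1 rose, and of 4 skeletal muscle markers 0 passed. Of 3 basal keratinocyte markers 1 rose and 1 fell, and of 4 tested suprabasal markers 2 rose. Of 2 tested hepatocyte markers 1 fell in AA, and 2 were higher in systemic JAK1i than in AA (22.7% of all genes). The hepatocyte list summed to at most 17.1 CPM. For comparison, 19.2% of all genes fell and 20.6% rose in AA. Except for the hepatocyte marker Apoa1 in healthy skin, no marker of these lists was at 0 throughout a group. The part of these cell types in the P450 differences was not tested.

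Cyp26b1 (ENSMUSG00000063415, chr6:84571414-84593908) had the smallest adjusted p among the falls. It was the only tested enzyme of the retinoic acid hydroxylases, which end retinoid signals. Its lowest, median and highest levels were 97.4, 135 and 172 CPM in healthy skin, 34.4, 46.7 and 57.4 CPM in AA, 112, 120.4 and 130.1 CPM in systemic JAK1i and 30.02, 37.9 and 57.95 CPM in 8w off Tx skin. Every AA and 8w off Tx library was below every healthy and systemic JAK1i library. The log2 fold change was -1.56 ± 0.15, adjusted p = 1.8e-07 in AA against healthy and -1.75 ± 0.15, adjusted p = 9.2e-08 in 8w off Tx against healthy. Systemic JAK1i exceeded AA by 1.38 ± 0.15, adjusted p = 4.9e-07, and differed from healthy by -0.18 ± 0.14, adjusted p = 0.56. The other 2 retinoic acid hydroxylases stayed under the filter, Cyp26a1 with 4, 5, 6 and 5 counts over the 6 libraries of the healthy, AA, systemic JAK1i and 8w off Tx groups, and Cyp26c1 with 45, 30, 49 and 24. The P450 genes whose log2 CPM ran most like that of Cyp26b1 over the 24 libraries were Cyp11a1 (Spearman rho 0.87), Cyp4b1 (0.86), Cyp4f37 (0.84), Cyp2j12 (0.81) and Cyp2d22 (0.81). These values are a description, since the libraries share 4 group means.

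Of 14 tested genes of retinoid handling around Cyp26b1, 6 rose in AA, 1 fell and 7 did not pass, with a median log2 fold change of 0.19. Of all genes 20.6% rose and 19.2% fell. Aldh1a3, which makes retinoic acid from retinal, rose by 3.29 ± 0.44, adjusted p = 1.0e-05, and Dhrs9, an oxidoreductase of retinol, rose by 1.89 ± 0.25, adjusted p = 6.0e-06. The receptors Rarg (-0.14 ± 0.09, adjusted p = 0.24) and Rxra (-0.21 ± 0.12, adjusted p = 0.18), the most abundant of the list, did not pass. In systemic JAK1i against AA 7 of the 14 were lower and 2 higher (24.4% and 22.7% of all genes), and Aldh1a3 was among the lower (-4.14 ± 0.46, adjusted p = 1.1e-06). Against healthy skin, 6 were higher and 2 lower in 8w off Tx (16.7% and 15.6% of all genes).

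The targets of the aryl hydrocarbon receptor, a sensor of smoke constituents and of tryptophan products, did not move together. Cyp1a1 (ENSMUSG00000032315, chr9:57687928-57703824), which oxidises polycyclic aromatic hydrocarbons and is the classic target of the receptor, was at 3.34, 13.7 and 18.2 CPM (lowest, median, highest) in healthy, 0.652, 4.66 and 12.2 CPM in AA, 19.998, 24.04 and 28.8 CPM in systemic JAK1i and 3.17, 5.07 and 13.7 CPM in 8w off Tx skin. All 6 systemic JAK1i libraries were above all 18 others. The difference of systemic JAK1i from AA passed (2.05 ± 0.45, adjusted p = 8.6e-04). The AA difference from healthy did not (-1.03 ± 0.47, adjusted p = 0.082), but it passed in limma-voom, on log2(TPM + 1), on TPM with each library's median set to 0 and with the replicate letter as a block, as well as without healthy B (-1.23, adjusted p = 0.029), without AA C (-1.35, adjusted p = 0.029) or without AA D (-1.35, adjusted p = 0.031). Cyp1a1 was lowest in healthy B within its group, the library also lowest in sebocyte, adipocyte, fibroblast and endothelial sums.

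Cyp1b1, its relative in family 1 that also acts on oestrogens, fell in AA (-0.79 ± 0.27, adjusted p = 0.023), from 85.5 ± 19.7 to 49.6 ± 26.03 CPM, and was at 83.1 ± 14.2 CPM in systemic JAK1i and 42.2 ± 13.9 CPM in 8w off Tx skin. The ranges of AA (21.7 to 92.5 CPM) and healthy (48.1 to 103 CPM) overlapped, and the call was lost without AA A (adjusted p = 0.057), AA D (0.051) or AA F (0.054), as well as without healthy A and E (-0.65, adjusted p = 0.11) and in a fit of these 2 groups alone. Systemic JAK1i against AA gave 0.75 ± 0.27, adjusted p = 0.026, a call lost without AA A, D or F or systemic JAK1i A (adjusted p from 0.050 to 0.063). Cyp1a2, the liver enzyme beside Cyp1a1, had 1 count in all 24 libraries.

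Cyp2s1 (ENSMUSG00000040703, chr7:25802475-25816913), an epithelial P450 that also answers to the receptor in other tissues, went the opposite way. It was at 12.4, 13.7 and 15.6 CPM (lowest, median, highest) in healthy and 21.2, 24.2 and 38.8 CPM in AA skin, with no overlap, and rose by 0.98 ± 0.23, adjusted p = 0.0018. In systemic JAK1i it was at 5.68, 10.9 and 13.1 CPM, all below AA (-1.38 ± 0.23, adjusted p = 5.8e-05). The 8w off Tx libraries split. A and E, those with few hair matrix reads, were at 10.7 and 12.8 CPM, within or below the healthy range, and the other 4 at 21.4 to 33.1 CPM. The group's rise over healthy (0.70 ± 0.23, adjusted p = 0.024) was lost without 8w off Tx B (0.58, adjusted p = 0.072) or F (0.56, adjusted p = 0.077), and on the TPM scale it changed sign (-0.82, adjusted p = 0.06), also with each library's median set to 0 (-0.03, adjusted p = 0.95). Without 8w off Tx A and E it was 0.98, adjusted p = 5.1e-04, and it did not pass in a fit of these 2 groups alone (0.68, adjusted p = 0.051) or without healthy A and E (0.70, adjusted p = 0.071). The gene overlaps Gm26707 on the other strand, and the strand setting of the counts is not given.

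Of 8 tested partners in the aryl hydrocarbon receptor axis 4 fell in AA and 0 rose (19.2% and 20.6% of all genes), with a median log2 fold change of -0.09. Ahr, the receptor itself, fell by 0.85 ± 0.10, adjusted p = 2.7e-06, and Aldh3a1, an aldehyde dehydrogenase among its targets, fell by 2.13 ± 0.31, adjusted p = 2.2e-05. Arnt, the partner with which Ahr binds DNA, fell by 0.15 ± 0.05, adjusted p = 0.018. In systemic JAK1i against AA 4 were higher and 0 lower (22.7% and 24.4% of all genes). Higher among them were Ahr by 0.58 ± 0.10, adjusted p = 1.0e-04, and Aldh3a1 by 2.04 ± 0.31, adjusted p = 2.5e-05.

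The vitamin D hydroxylases moved in both directions. Cyp27b1 (ENSMUSG00000006724, chr10:127048250-127053006), which makes the active hormone, rose in AA by 1.11 ± 0.31, adjusted p = 0.0063, with 0.856, 1.5 and 3.23 CPM (lowest, median, highest) in healthy and 2.45, 3.3 and 5.93 CPM in AA skin. Only the healthy C library reached into the AA range. In systemic JAK1i it was at 0.551, 1.42 and 2.43 CPM, every library below AA (-1.31 ± 0.31, adjusted p = 0.0012), and in 8w off Tx at 2.92, 3.57 and 4.83 CPM (1.11 ± 0.31, adjusted p = 0.0085 against healthy). That last call was lost without healthy A and E (0.97, adjusted p = 0.053) and on TPM with each library's median set to 0 (0.79, adjusted p = 0.06). Cyp2r1, which carries out the first activating step in liver, fell by 0.92 ± 0.29, adjusted p = 0.013, and Cyp27a1, a mitochondrial sterol hydroxylase that can do the same, fell by 0.57 ± 0.20, adjusted p = 0.028. The Cyp27a1 call was lost without healthy A or F or AA B, E or F (adjusted p from 0.054 to 0.075), without healthy A and E (-0.52, adjusted p = 0.092), and in a fit of these 2 groups alone. Against AA, systemic JAK1i was higher in Cyp27a1 (0.98 ± 0.20, adjusted p = 4.1e-04) with no overlap, and in Cyp2r1 (0.80 ± 0.29, adjusted p = 0.024), where the call was lost without AA A, B or E (adjusted p from 0.051 to 0.060). Cyp24a1, which destroys the hormone and is its best known target, had 1, 1, 1 and 4 counts over the 6 libraries of the 4 groups, and was not tested.

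Of the 4 tested partners in the vitamin D axis 1 rose in AA, 1 fell and 2 did not pass, where 20.6% of all genes rose and 19.2% fell. The receptor Vdr rose by 0.74 ± 0.13, adjusted p = 1.7e-04, and was lower in systemic JAK1i than in AA (-0.78 ± 0.13, adjusted p = 6.5e-05). Cubn, an uptake receptor of the vitamin's carrier protein, fell by 1.61 ± 0.35, adjusted p = 7.0e-04 and was higher in systemic JAK1i than in AA by 2.14 ± 0.34, adjusted p = 2.7e-05.

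Both tested genes of steroid hormone synthesis changed in AA, in opposite directions. Cyp11a1 (ENSMUSG00000032323, chr9:58006411-58027023), which cleaves the side chain of cholesterol as the first step, was at 3.87, 6.18 and 7.24 CPM (lowest, median, highest) in healthy, 0, 0.909 and 2.2 CPM in AA, 1.82, 3.46 and 5.83 CPM in systemic JAK1i and 0.58, 0.793 and 1.26 CPM in 8w off Tx skin. All AA and all 8w off Tx libraries were below all healthy ones, and the log2 fold changes were -2.69 ± 0.44, adjusted p = 2.6e-05 and -2.75 ± 0.45, adjusted p = 4.8e-05. Over 6 libraries its summed counts were 203 for healthy skin, 29 for AA, 152 for systemic JAK1i and 26 for 8w off Tx. Systemic JAK1i exceeded AA by 1.92 ± 0.44, adjusted p = 6.9e-04, with the lowest systemic JAK1i library inside the AA range. Of the 76-base windows of its transcripts 1.456% are shared with Gm17322, which overlaps it on the same strand.

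Cyp17a1 (ENSMUSG00000003555, chr19:46667165-46673172), which turns progestagens towards androgens, rose in AA by 1.16 ± 0.34, adjusted p = 0.0081, from 2.57, 3.99 and 8.61 CPM (lowest, median, highest) to 6.85, 11.4 and 12.6 CPM, with an overlap through healthy B. It was at 2.42, 5.28 and 9.09 CPM in systemic JAK1i (-0.94 ± 0.33, adjusted p = 0.022 against AA), a call lost without systemic JAK1i D (adjusted p = 0.052) or E (adjusted p = 0.054). Without healthy A and E the AA rise did not pass (0.91, adjusted p = 0.059). The other 4 enzymes of the pathway were under the filter. Cyp19a1, which makes oestrogens, had 1 count in all, Cyp11b1 and Cyp11b2, which end the corticoid pathways, 0 to 5 counts in a group, and Cyp21a1, the corticoid hydroxylase before them, 15, 18, 28 and 33 counts in the healthy, AA, systemic JAK1i and 8w off Tx groups.

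Among 10 tested partners in steroid and sterol handling 3 fell in AA, 1 rose and 6 did not pass, with a median of -0.25. Of all genes 19.2% fell and 20.6% rose. Nr1h3, the oxysterol receptor LXR alpha, fell by 0.90 ± 0.26, adjusted p = 0.0078 and Hsd17b2, which inactivates oestrogens and androgens, rose by 1.36 ± 0.42, adjusted p = 0.012. Cyp51, the sterol demethylase of cholesterol synthesis that the naming rule leaves out, did not pass (0.07 ± 0.11, adjusted p = 0.62).

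**Figure D4:**
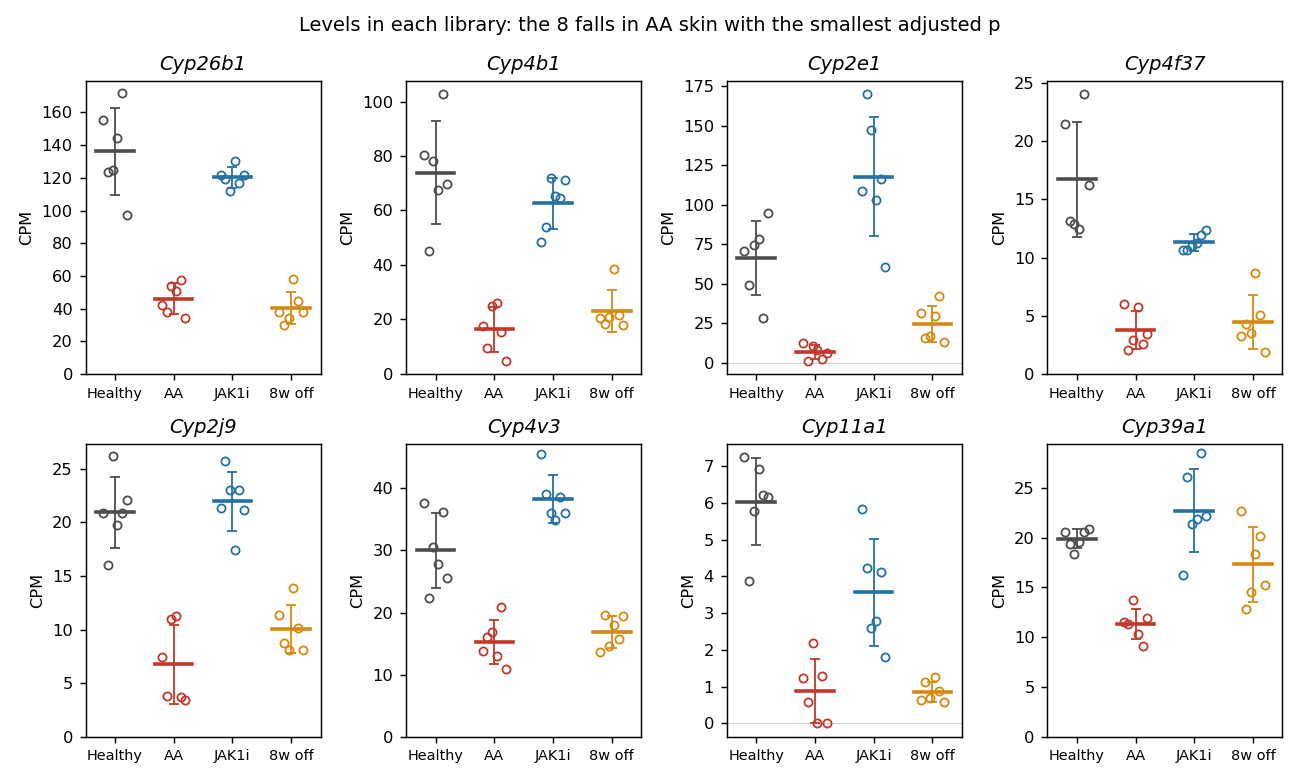
CPM in each library for the 8 P450 genes with the smallest adjusted p among falls in AA skin. Circles are libraries in the order A to F, bars are means and whiskers SD (n = 6). In all 8 genes the AA libraries lie below the healthy ones, and in all but Cyp11a1 also below the systemic JAK1i ones.

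The 3 tested oxysterol and bile acid hydroxylases all changed in AA. Cyp7b1 (ENSMUSG00000039519, chr3:18071950-18243338), which hydroxylates oxysterols and some steroids, rose by 1.56 ± 0.38, adjusted p = 0.002, from 1.76, 2.22 and 3.08 CPM (lowest, median, highest) in healthy to 3.44, 6.07 and 12.4 CPM in AA skin with no overlap. It was at 0.992, 2.77 and 3.68 CPM in systemic JAK1i (-1.39 ± 0.36, adjusted p = 0.0031 against AA) and at 2.65, 6.33 and 13.1 CPM in 8w off Tx skin, where only library E (2.65 CPM) was inside the healthy range. Cyp39a1 (ENSMUSG00000023963, chr17:43667425-43751431), which hydroxylates oxysterols towards bile acids, fell by 0.81 ± 0.14, adjusted p = 6.9e-05. Its levels were tight, 18.4, 20.1 and 20.9 CPM in healthy and 9.13, 11.4 and 13.7 CPM in AA skin, with 16.3, 22.03 and 28.5 CPM in systemic JAK1i and 12.9, 16.8 and 22.7 CPM in 8w off Tx skin. It was above AA in 8w off Tx skin (0.60 ± 0.14, adjusted p = 0.031), a call lost without AA B or E or 8w off Tx A, D or E (adjusted p from 0.071 to 0.085), without 8w off Tx A and E together, and in limma-voom. Cyp8b1, a bile acid hydroxylase known from liver, was at 1.9 ± 0.516 CPM in healthy and 0.943 ± 0.447 CPM in AA skin, and its fall (-0.99 ± 0.36, adjusted p = 0.029) was lost without healthy A or B or AA D or E (adjusted p from 0.053 to 0.068) and without healthy A and E together (-0.94, adjusted p = 0.077). Cyp8b1 passed the filter only through its highest group, healthy skin, so its fall was in part built into its being tested. Cyp7a1, the gate of bile acid synthesis in liver, had no count, and Cyp46a1, a cholesterol hydroxylase known from neurons, had 41, 12, 94 and 15 counts over the healthy, AA, systemic JAK1i and 8w off Tx groups and was not tested.

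The fold changes largest in size were those of Cyp2e1 in AA against healthy and of Cyp2g1 in systemic JAK1i against AA, both of family 2, and of Cyp11a1 in 8w off Tx against healthy. Of the family's 13 members outside the roles above 9 fell in AA, 4 did not pass and 0 rose, with a median of -1.26. Over all genes 19.2% fell and 20.6% rose. Cyp2e1 (ENSMUSG00000025479, chr7:140763739-140774987) was at 28.5, 72.6 and 94.9 CPM (lowest, median, highest) in healthy, 1.15, 7.06 and 12.4 CPM in AA, 60.8, 113 and 169.8 CPM in systemic JAK1i and 12.95, 23.1 and 42.01 CPM in 8w off Tx skin. AA libraries were below those of every other group. The log2 fold change was -3.25 ± 0.40, adjusted p = 3.3e-06 in AA against healthy, 4.08 ± 0.40, adjusted p = 2.8e-07 in systemic JAK1i against AA and -1.43 ± 0.36, adjusted p = 0.0044 in 8w off Tx against healthy. The rise of 8w off Tx over AA (1.81 ± 0.41, adjusted p = 0.031) was lost without AA B, E or F or 8w off Tx A, D or E (adjusted p from 0.057 to 0.083), without 8w off Tx A and E together (1.41, adjusted p = 0.13), and in limma-voom.

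The 4 tested Cyp2j genes, relatives of the human epoxygenase of arachidonic acid, all fell in AA. Cyp2j9 (ENSMUSG00000015224, chr4:96568429-96591578) was at 15.99, 20.9 and 26.2 CPM (lowest, median, highest) in healthy and 3.44, 5.64 and 11.3 CPM in AA skin, with no overlap (-1.63 ± 0.24, adjusted p = 1.5e-05), and at 17.4, 22.2 and 25.7 CPM in systemic JAK1i and 8.06, 9.47 and 13.9 CPM in 8w off Tx skin. Cyp2j6 fell by 1.26 ± 0.21, adjusted p = 7.2e-05, from 58.01 ± 7.56 to 24.4 ± 7.98 CPM, also with no overlap. Cyp2j12 was lower still in level, 7.09 ± 2.89 CPM in healthy and 1.28 ± 1.51 CPM in AA (-2.55 ± 0.50, adjusted p = 2.4e-04), and without AA C, its highest AA library, the log2 fold change was -3.33, adjusted p = 1.3e-05. Systemic JAK1i exceeded AA in Cyp2j12 by 2.98 ± 0.50, adjusted p = 3.0e-05, and without AA C by 3.77, adjusted p = 2.0e-06. Cyp2j8 (-2.14 ± 0.67, adjusted p = 0.0086) reached 10 counts in no AA library and passed the filter only through its highest group. All 4 were higher in systemic JAK1i than in AA with no overlap, from 1.37 ± 0.21 for Cyp2j6 to 3.07 ± 0.65 for Cyp2j8.

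The Cyp2 genes of chromosome 7 differed among themselves. Cyp2f2, known from the club cells of the airway where it activates naphthalene, fell in AA by -2.19 ± 0.40, adjusted p = 1.8e-04, from 14.2, 35.5 and 51.2 CPM (lowest, median, highest) to 0.793, 4.29 and 21.8 CPM. Without AA C its log2 fold change was -2.78, adjusted p = 5.0e-06. Systemic JAK1i exceeded AA in Cyp2f2 by 2.84 ± 0.40, adjusted p = 9.2e-06, and without AA C by 3.42, adjusted p = 4.5e-07. Cyp2g1 (ENSMUSG00000049685, chr7:26808892-26821205) varied most, with 0.351, 30.8 and 65.3 CPM in healthy, 0, 4.96 and 11.3 CPM in AA, 101, 117 and 217 CPM in systemic JAK1i and 4.1, 22.4 and 63.9 CPM in 8w off Tx skin. Its lowest healthy library was again B. Every systemic JAK1i library was above every other library, the fall in AA passed (-2.55 ± 0.79, adjusted p = 0.012) but not in limma-voom, and the difference from AA was 4.70 ± 0.77, adjusted p = 5.7e-05. Cyp2b19 fell in AA (-0.90 ± 0.22, adjusted p = 0.0023) from 82.6 ± 16.8 to 44.3 ± 19.8 CPM and did not differ beyond the threshold between 8w off Tx and healthy (-0.27 ± 0.22, adjusted p = 0.35). Its neighbour Cyp2b10, the classic drug-induced P450 of liver, was at 35.4 ± 6.71 CPM in healthy, 35.9 ± 9.15 CPM in AA, 31.9 ± 3.45 CPM in systemic JAK1i and 26.02 ± 13.2 CPM in 8w off Tx skin. Its AA difference from healthy was 0.03 ± 0.23, adjusted p = 0.94. Its difference in 8w off Tx against healthy was -0.45 ± 0.24, adjusted p = 0.15, which passed without 8w off Tx E (-0.73, adjusted p = 0.01). Cyp2t4, the lowest in mean TPM in healthy skin, did not pass in any comparison. On the other strand Cyp2f2 overlaps Gm15883, Cyp2t4 overlaps Egln2 and Cyp2u1 overlaps 4930534D22Rik, and the strand setting of the counts is not given.

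Of the remaining Cyp2 genes Cyp2d22 fell (-1.15 ± 0.22, adjusted p = 2.9e-04) with no overlap between AA (2.38 to 7.34 CPM) and healthy skin (7.38 to 12.7 CPM). Cyp2u1, a fatty acid hydroxylase, did not pass in AA (-0.37 ± 0.31, adjusted p = 0.46) and was higher in systemic JAK1i than in AA (1.17 ± 0.29, adjusted p = 0.0018). It passed the filter only through its highest group, systemic JAK1i, so that difference was in part built into its being tested. Cyp2w1 passed in none of the 6 comparisons. Cyp2a4 and Cyp2a5, steroid and coumarin hydroxylases known from liver, were under the filter, Cyp2a4 with 43, 1, 51 and 15 counts and Cyp2a5 with 28, 6, 69 and 7 counts over the healthy, AA, systemic JAK1i and 8w off Tx groups. Of the 43 healthy counts of Cyp2a4 27 came from a single library. These sums are not scaled for depth.

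Both tested Cyp3a genes, relatives of the main drug-oxidising enzyme of human liver, fell in AA. Cyp3a57 went from 2.64, 7.34 and 12.3 CPM (lowest, median, highest) in healthy to 0, 1.53 and 6.12 CPM in AA (-1.82 ± 0.49, adjusted p = 0.0047), with 9.26, 11.6 and 14.1 CPM in systemic JAK1i (2.49 ± 0.48, adjusted p = 1.9e-04 against AA). Without AA C these were -2.43, adjusted p = 3.8e-04 and 3.09, adjusted p = 2.0e-05. Cyp3a13 fell by 0.84 ± 0.26, adjusted p = 0.012, from 12.7 ± 3.65 to 7.07 ± 2.27 CPM, and did not pass without healthy A and E (-0.59, adjusted p = 0.1). Cyp3a13 in 8w off Tx skin was at 13.99 ± 6.42 CPM (0.12 ± 0.25, adjusted p = 0.74 against healthy, of the opposite sign on the uncentred TPM scale) and Cyp3a57 at 2.56 ± 1.76 CPM (-1.53 ± 0.48, adjusted p = 0.017). Of the other 7 Cyp3a genes none passed the filter.

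Family 4, the fatty acid hydroxylases, held genes that fell and genes that did not pass. Of 7 tested 4 fell in AA, 0 rose and 3 did not pass, with a median of -0.49, where 19.2% of all genes fell and 20.6% rose. Cyp4b1 (ENSMUSG00000028713, chr4:115624725-115647723) was at 44.98, 73.9 and 103 CPM (lowest, median, highest) in healthy, 4.76, 16.3 and 25.9 CPM in AA, 48.6, 64.9 and 71.9 CPM in systemic JAK1i and 17.98, 20.6 and 38.3 CPM in 8w off Tx skin. AA and 8w off Tx libraries were all below healthy and systemic JAK1i ones, with -2.17 ± 0.27, adjusted p = 3.2e-06 in AA and -1.68 ± 0.26, adjusted p = 7.2e-05 in 8w off Tx against healthy. Cyp4v3 (ENSMUSG00000079057, chr8:45304944-45333216), whose human counterpart is a fatty acid hydroxylase, was at 22.3, 29.2 and 37.6 CPM in healthy and 10.8, 14.9 and 20.9 CPM in AA skin with no overlap (-0.97 ± 0.14, adjusted p = 1.8e-05), 34.9, 37.3 and 45.5 CPM in systemic JAK1i and 13.6, 16.8 and 19.6 CPM in 8w off Tx skin. Of its 76-base windows 6.376% are shared with Gm45753 on the same strand, and of those of Cyp4b1 5.503% with 2 pseudogenes.

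Among the 5 tested Cyp4f genes, which lie side by side on chromosome 17, Cyp4f37 (ENSMUSG00000062464, chr17:32621309-32636184) fell 4.27-fold in AA (-2.10 ± 0.28, adjusted p = 5.7e-06). Its levels were 12.5, 14.7 and 24.1 CPM (lowest, median, highest) in healthy, 2.1, 3.19 and 5.99 CPM in AA, 10.6, 11.1 and 12.4 CPM in systemic JAK1i and 1.93, 3.9 and 8.64 CPM in 8w off Tx skin. Healthy and systemic JAK1i libraries did not overlap either, although that difference did not pass (-0.56 ± 0.25, adjusted p = 0.25). Cyp4f13, a fatty acid hydroxylase, fell (-0.49 ± 0.11, adjusted p = 0.0016), from 27.5 ± 2.49 to 19.6 ± 3.37 CPM, with no overlap. Cyp4f39, the barrier ceramide enzyme, was at 46.03 ± 12.1, 45.7 ± 5.55, 41.7 ± 3.44 and 38.3 ± 6.87 CPM in healthy, AA, systemic JAK1i and 8w off Tx skin, with -0.01 ± 0.14, adjusted p = 0.95 in AA. Cyp4f16 (0.26 ± 0.14, adjusted p = 0.15) and Cyp4f17 (0.17 ± 0.13, adjusted p = 0.31) did not pass in AA. Cyp4f16 was lower in systemic JAK1i than in AA (-0.39 ± 0.14, adjusted p = 0.03), a call lost without AA C or E or systemic JAK1i A, B, D or F (adjusted p from 0.053 to 0.086) and with upper-quartile scaling, and of the opposite sign on the uncentred TPM scale. Of the 76-base windows of Cyp4f37 11.201% and of Cyp4f16 9.893% are shared with other Cyp4f genes, so counts of these may be split between them. Cyp4f18, an inactivator of leukotrienes in neutrophils, had 18, 52, 18 and 39 counts in the healthy, AA, systemic JAK1i and 8w off Tx groups and was not tested.

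Cyp20a1, a P450 with no known substrate, was at 14.8 ± 3.27 CPM in healthy and 10.997 ± 2.31 CPM in AA skin and did not pass (-0.42 ± 0.19, adjusted p = 0.073), but passed without healthy B (-0.49, adjusted p = 0.042) or AA C (-0.53, adjusted p = 0.031).

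**Figure D5:**
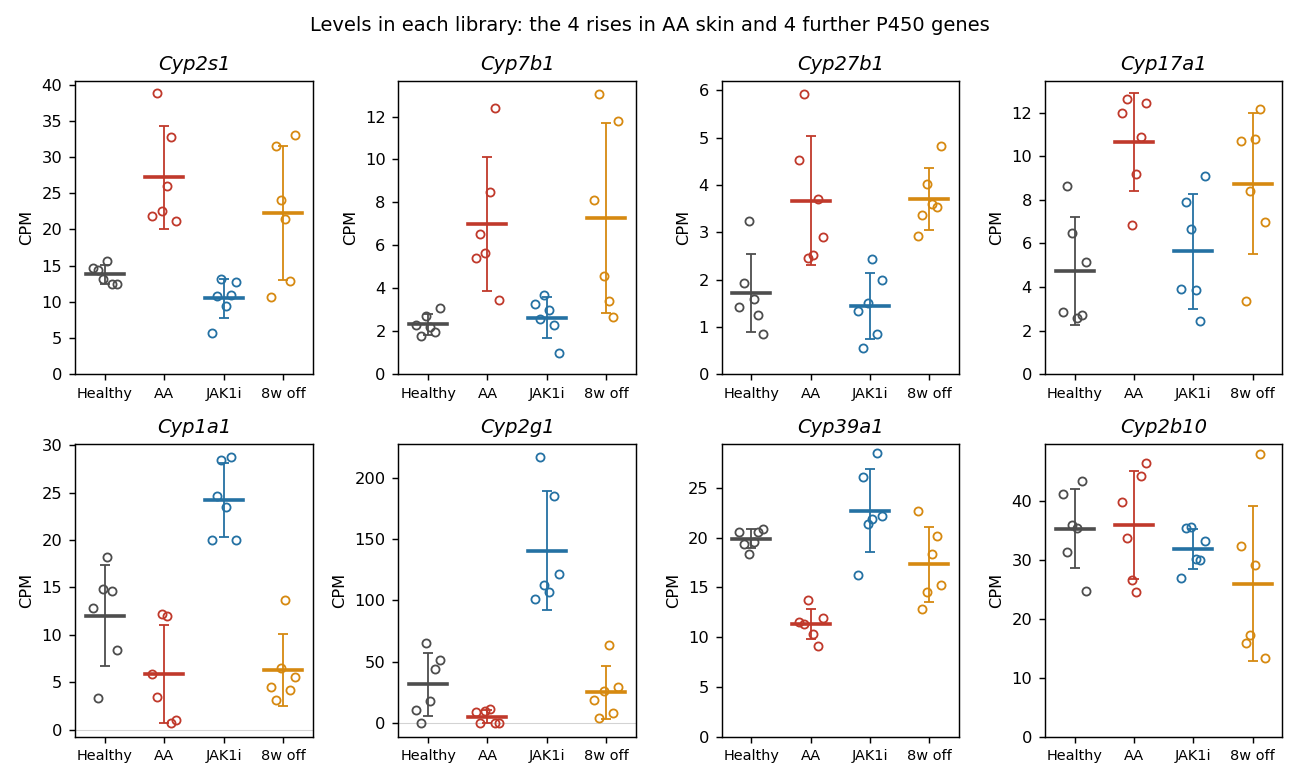
CPM in each library for the 4 P450 genes that rose in AA skin (upper row) and for Cyp1a1, Cyp2g1, Cyp39a1 and Cyp2b10 (lower row). Circles are libraries in the order A to F, bars are means and whiskers SD (n = 6). Cyp2s1 in 8w off Tx libraries A and E is at 10.7 and 12.8 CPM, and all systemic JAK1i libraries of Cyp1a1 and Cyp2g1 lie above those of the other groups.

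Of the 8 tested electron donors of the P450 enzymes 5 fell in AA and 0 rose (19.2% and 20.6% of all genes), with a median log2 fold change of -0.37. In systemic JAK1i against AA 6 were higher and 0 lower (22.7% and 24.4% of all genes). Cyb5a, the cytochrome b5 of the endoplasmic reticulum, fell by 0.60 ± 0.08, adjusted p = 5.2e-06, and Pgrmc1, a haem protein that binds P450 enzymes, fell by 0.67 ± 0.09, adjusted p = 7.7e-06. Cyb5r3, the reductase of cytochrome b5, fell by 0.40 ± 0.13, adjusted p = 0.016, and Cyb5b, the cytochrome b5 of mitochondria, did not pass (-0.15 ± 0.10, adjusted p = 0.25). Por, the reductase on which all P450 enzymes of the endoplasmic reticulum depend, was named here after its values were seen and fell by 0.34 ± 0.07, adjusted p = 5.4e-04.

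All 3 tested genes of a list of 6 nuclear receptors fell in AA and were higher in systemic JAK1i than in AA (19.2% and 22.7% of all genes). Ppara, the fatty acid receptor that controls many Cyp4 genes in liver, fell by 1.55 ± 0.19, adjusted p = 2.4e-06. Pparg, the receptor of adipocytes and sebocytes, fell by 1.54 ± 0.31, adjusted p = 4.5e-04. Against AA skin, Ppara (0.84 ± 0.19, adjusted p = 0.031) was higher in 8w off Tx. The drug-sensing receptors of the list, which drive Cyp2b and Cyp3a genes in liver, were under the filter and not tested. Of 20 tested eicosanoid and barrier lipid enzymes 7 rose in AA and 4 fell, with a median of -0.07, beside 20.6% and 19.2% of all genes. Ephx1, an epoxide hydrolase that follows P450 enzymes in their pathways, fell by 1.49 ± 0.16, adjusted p = 9.3e-07, and Tbxas1, thromboxane synthase and itself a P450 by structure, rose by 1.94 ± 0.38, adjusted p = 3.7e-04. Elovl4 (-0.30 ± 0.18, adjusted p = 0.19) and Abca12 (-0.09 ± 0.19, adjusted p = 0.74), barrier lipid genes and the most abundant of this list, did not pass.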

How the data were processed

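RNA of 24 skin samples was depleted of ribosomal RNA and made into libraries with the TruSeq Stranded Total RNA kit (RiboGold), without fragmentation because of low RNA integrity, and read as 2 x 76 bases. Per the labels the molecule was polyA RNA. For the count table the authors converted reads with bcl2fastq, mapped them to mm10/GRCm38 with HISAT2 2.0.1 and counted them per gene with featureCounts 1.4.4. The annotation release, strand setting and treatment of reads with several matches are each not given in any source used here. The authors also deposited TPM values (transcript levels corrected for length) per gene, whose quantifier is not given either. Of the columns of each table, 6 match no sample and were left out. Series text gives 12 weeks of dosing, where sample names and the methods give 4.

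Gene symbols are those of GENCODE M21 (37693 IDs matched, 1324 did not). The members, gene lists and tests were chosen with earlier results of these data known. Genes with 10 or more counts in 6 or more libraries were tested in R 4.3.3 with edgeR 4.0.16 (TMM, quasi-likelihood F test, 4 groups in 1 fit, no covariate), with p-values adjusted by Benjamini-Hochberg over all 16558 genes for each of 6 comparisons. CPM values use TMM library sizes. The fit was tested on simulated data. Whether the replicate letters pair libraries is not known, and no paired test was made. In levels centred on each group's mean, at most 2 of the 6 same-letter pairs of any 2 groups correlated above 0.1. The highest value was 0.40. Biopsies of 1 mouse taken 8 weeks apart need not correlate, so these values cannot show that the letters do not pair libraries. The p-values measure the spread between libraries, and no source says that each came from a separate extraction. Alternatives were RLE and upper-quartile scaling, other filters, DESeq2 1.42.0, limma-voom and limma on log2(TPM + 0.1) or log2(TPM + 1) (limma 3.58.1), a replicate block, fits of 2 groups alone, and leaving out each library. Genes named were all P450 genes called in AA against healthy, systemic JAK1i against AA or healthy, or 8w off Tx against AA, every member of the retinoic acid, vitamin D, aryl hydrocarbon receptor and steroid synthesis roles and of families of 3 or fewer, the most abundant of each role, and of each partner list the 2 with the smallest adjusted p and the 2 most abundant, of which 1 gene is not reported here. Cyp2b10, Cyp2t4, Cyp2w1, Cyp4f17, Cyp4f39, Cyp2a4, Cyp2a5 and Cyp4f18 were named after their values were seen. Promoter sequences are from RefSeq (GRCm38.p6). Shared sequence was counted over all 76-base windows of annotated transcripts.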

Additional observations from a re-analysis of the deposited data

Results flagged for a closer look

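In 140 sets of 6 libraries (35 genes in 4 groups) 4 had a single library standing apart by Dixon's gap test at 95%, where chance flags about 1 in 20. Cyp1a1 was at 13.7 CPM in 8w off Tx D, with the next library at 6.49 CPM and a group median of 5.07 CPM, and without that library the 8w off Tx difference from healthy passed (-1.31, adjusted p = 0.04) where it did not with it (-0.91 ± 0.46, adjusted p = 0.14). Cyp4b1 was at 38.3 CPM in 8w off Tx D, with the next at 21.4 CPM and a median of 20.6 CPM. Cyp1b1 was at 48.1 CPM in healthy B, the lowest of its group, with the next at 85.4 CPM and a median of 88.1 CPM. Cyp2w1 was at 16.9 CPM in healthy B, with the next at 9.42 CPM and a median of 6.92 CPM. 8w off Tx D also had the highest sebocyte sum of its group (351 CPM), and healthy B the lowest (183 CPM). Healthy B was also the lowest of its group in adipocyte, fibroblast and endothelial sums, and 8w off Tx D the highest in endothelial sum.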

How the results depend on the processing

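The count of P450 falls in AA (22) stayed within 1.5 times in 13 settings and with each of 12 libraries left out. The count higher in systemic JAK1i than in AA (23) did so in 12 settings and 12 omissions except TPM without a filter, which tested 80 P450 genes and called 41. Leaving out libraries gave 4 to 4 genes higher and 20 to 24 lower in AA against healthy, 22 to 24 and 3 to 5 in systemic JAK1i against AA, 0 and 0 in systemic JAK1i against healthy, 3 to 4 and 13 to 16 in 8w off Tx against healthy, 0 to 4 and 0 to 0 against AA, and 4 to 4 and 17 to 22 against systemic JAK1i.

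The uncentred TPM scale changed most counts. Deposited TPM is relative to all transcripts of a library, of which the small nuclear and signal particle RNAs 7SK and 7SL took 11.6% to 33.1%. On it, with pseudocount 0.1, pseudocount 1 and without a filter, the rises in AA came to 0, 0 and 0, and the lower genes of systemic JAK1i against AA to 0, 0 and 1. For 8w off Tx against healthy 0, 0 and 0 were higher and 27, 27 and 36 lower, against AA 0, 0 and 0 higher and, with a filter, 2 and 2 lower, and against systemic JAK1i 0, 0 and 0 higher and 31, 32 and 48 lower. With pseudocount 1, 3 genes were higher in systemic JAK1i than in healthy skin. Centred on each library's median (chosen after seeing the data), 2 rose in AA, 3 were lower in systemic JAK1i against AA and 2 higher in 8w off Tx against healthy.

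Signs turned on the uncentred TPM scale, with log2 differences at pseudocounts 0.1 and 1 given in that order (without a filter the first value, except where given). In systemic JAK1i against AA these were Cyp4f39 to 0.52 and 0.48 and Cyp4f16 to 0.51 and 0.44. For 8w off Tx against healthy these were Cyp3a13 to -0.78 and -0.51, Cyp2s1 to -0.82 and -0.62 (centred -0.028), Cyp4f17 to -0.49 and -0.35 and Cyp4f16 to -1.08 and -0.90. For 8w off Tx against systemic JAK1i these were Cyp2w1 to -1.25 and -0.79, Cyp2s1 to -0.98 and -0.76, Cyp27b1 to -0.31 and -0.14, Cyp4f17 to -0.78 and -0.57, Cyp4f16 to -1.15 and -0.96 and Cyp2t4 to -0.22 (pseudocount 1 only). 

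Of the 6 libraries of 1 group 0 to 2 correlated best with their own letter in the other, which does not show whether a letter marks a mouse. The replicate block gave 0 higher genes in 8w off Tx against AA, and changed no other count by 1.5 times. A fit of 2 groups alone gave 0 there and 2 higher in 8w off Tx against healthy. limma-voom gave 0 there and 1 higher, Cyp2g1, in systemic JAK1i against healthy. Chosen after seeing the data, leaving out healthy A and E gave 2 higher in 8w off Tx against healthy, and leaving out 8w off Tx A and E gave 0 higher and 1 lower (Cyp2b10) in 8w off Tx against AA. Why counts moved was not tested. Depth limits low genes most. Among the fallen genes Cyp2j8, Cyp2j12, Cyp2g1, Cyp3a57 and Cyp11a1 had no count in 1 or 2 AA libraries. Over the 6 AA libraries they had from 21 (Cyp2j8) to 175 (Cyp2g1) counts, so their AA levels rest on few reads. Of the 98 genes, 63 had too few counts to test.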
